A study of Mus musculus with 7 samples.

Results

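Transcripts of 10 genes of the visceral yolk sac endoderm and the early liver were followed, embryo by embryo, in whole mouse embryos at embryonic day 10.5. They were Afp, Apoa1, Apoa2, Apoa4, Apob, Ttr, Rbp4, Amn, Cubn and Alb, 10 of the 12393 genes that the array annotation names singly, and 21 of the 22690 probe sets on the array measured them. The genes were chosen by their signals in these data, since most of them stood out in 1 exposed embryo, so their values in that embryo are given as a description. Of the 7 embryos, 2 were control embryos from 1 untreated FVB dam and 5 were diabetes-exposed embryos from 1 FVB dam made diabetic with streptozotocin, 3 of them without a neural tube defect (NTD) and 2 with an NTD. The dams treated with streptozotocin were 7 to 9 weeks old and their blood glucose stayed above 250 mg/dl from mating to harvest. Each array held RNA of 1 whole embryo. With 1 litter on each side, litter and diabetes cannot be told apart, and each p-value measures a difference against the variation among littermates.

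The visceral endoderm is the outer epithelium of the visceral yolk sac, the membrane that surrounds the mouse embryo and feeds it before the placenta takes over. Its cells take up maternal protein by endocytosis and secrete serum proteins and lipoproteins into the embryonic circulation. The fetal liver comes to make many of the same proteins, so that Afp, Ttr and the apolipoproteins are known from both tissues. Alb is chiefly a product of the liver, and Amn and Cubn encode both parts of an uptake receptor of the yolk sac, gut and kidney. In RNA of a whole embryo, a change in the number of such cells and a change in RNA per cell cannot be told apart.

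Exposed embryo 1 without NTD stood apart for these transcripts. The signal, in the array's own linear units, was highest in this embryo for 18 of the 21 probe sets and, by the brightest probe set of each gene, for 9 of the 10 genes, Alb being the exception. It was over 4 times that of the next embryo for 15 of the 20 probe sets that reached the 40th percentile of an array in at least 1 embryo, where the same held for 42 of all 15384 such probe sets, or 0.273%. Since the genes were chosen for this embryo, nothing is read from the contrast of these shares. The 40th percentile lay between a signal of 131 and 146 on the 7 arrays, and lower signals are called dim here.

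**Figure D1:**
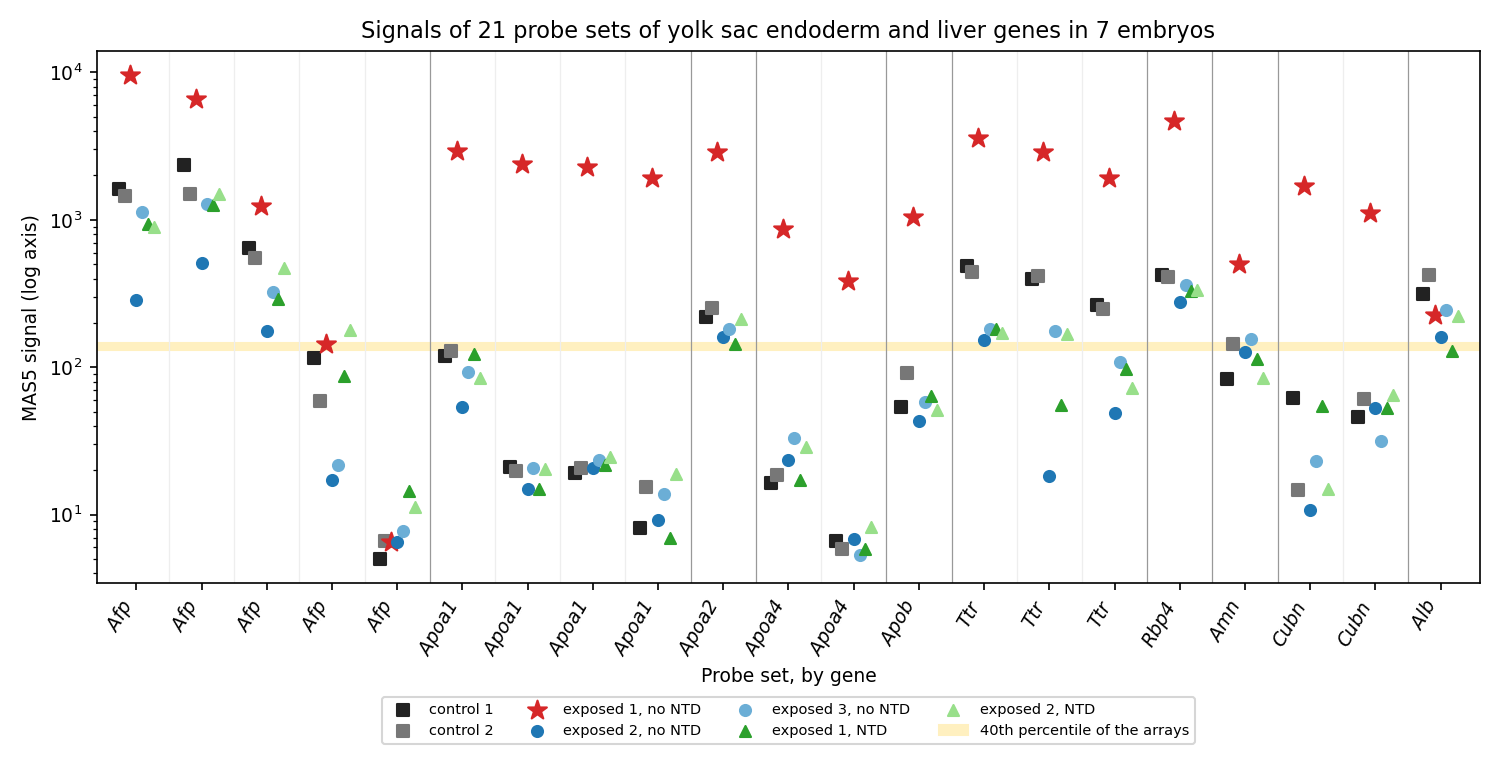
MAS5 signal on a log axis of each of the 21 probe sets of the 10 genes, with 1 point per embryo and the band of the arrays' 40th percentiles shaded. The star, exposed embryo 1 without NTD, lies highest in 18 probe sets, while Alb and 2 Afp probe sets are the exceptions. Of these, Afp 1436880_at is dim in every embryo and Afp 1436881_x_at in all but exposed embryo 2 with NTD.

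Among the secreted carriers, Afp, the fetal counterpart of albumin, had its brightest probe set, by the mean over the 7 arrays, at 1416646_at. That mean rests on exposed embryo 1 without NTD, and in every other embryo 1416645_a_at was the brighter. The no-NTD embryos 1 to 3 (exposed, without NTD) had signals of 9606, 285 and 1122, the NTD embryos 1 and 2 had 934 and 897, and the control embryos had 1629 and 1449. Exposed embryo 1 without NTD was thus 5.90 times the next embryo, and both controls lay above the other 4 exposed embryos. Another probe set, 1416645_a_at, gave the same order at its ends, with 6626 in exposed embryo 1 without NTD, 1500 to 2349 in the controls and 507 to 1494 in the other exposed embryos. A further one, 1436879_x_at, had 1236, 549 to 642 and 176 to 471 in the same order. The ratios to the next embryo at these probe sets were smaller, at 2.82 and 1.93. The remaining 2 Afp probe sets did not show the pattern: 1436881_x_at was highest in exposed embryo 2 with NTD at 180, against 145 in exposed embryo 1 without NTD, and 1436880_at was dim in all 7 embryos at 5.00 to 14.4.

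Ttr encodes transthyretin, the carrier of thyroxine and of the retinol-binding protein. Its brightest probe set, 1454608_x_at, had signals of 3568, 152 and 183 in the no-NTD embryos 1 to 3, 183 and 171 in the NTD embryos 1 and 2, and 488 and 446 in the controls. The controls and the 4 lower exposed embryos did not overlap. The other 2 Ttr probe sets, 1451580_a_at and 1455913_x_at, had 2870 and 1909 in exposed embryo 1 without NTD, 399 to 417 and 248 to 263 in the controls, and 18.2 to 176 and 49.1 to 109 in the other exposed embryos. All 3 probe sets of Ttr therefore had the order of exposed embryo 1 without NTD, then the controls, then the rest.

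Rbp4, the retinol-binding protein that travels in plasma with transthyretin, had signals of 4661, 276 and 364 in the no-NTD embryos 1 to 3, 332 and 334 in the NTD embryos 1 and 2, and 421 and 406 in the controls. The order was that of Ttr, with a narrower distance between the controls and the 4 lower exposed embryos.

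The apolipoproteins differed in how much signal the other embryos held. Apoa1, the main protein of high-density lipoprotein, was above 24.6 in exposed embryo 1 without NTD alone by 3 of its 4 probe sets, 1455201_x_at, 1419233_x_at and 1419232_a_at, with signals of 2379, 2278 and 1932 there and at most 21.1, 24.6 and 19.0 in the other 6 embryos. Its brightest probe set, 1438840_x_at, had signals of 2944, 54.1 and 93.6 in the no-NTD embryos 1 to 3, 123 and 84.6 in the NTD embryos 1 and 2, and 119 and 129 in the controls, so that the other 6 were dim.

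Apoa4, an apolipoprotein of chylomicrons, was dim in the same 6 embryos. Its brighter probe set, 1436504_x_at, had 865, 23.4 and 32.9 in the no-NTD embryos 1 to 3, 17.1 and 28.9 in the NTD embryos 1 and 2, and 16.5 and 18.7 in the controls. Apob, the structural protein of low-density and very-low-density lipoproteins, had 1041, 43.0 and 57.9 without NTD, 63.7 and 51.6 with NTD, and 53.7 and 91.9 in the controls. Neither gene separated the controls from the 4 lower exposed embryos.

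Apoa2, another protein of high-density lipoprotein, was the apolipoprotein of the set that passed the 40th percentile on all 7 arrays. Its signals were 2897, 161 and 183 in the no-NTD embryos 1 to 3, 144 and 214 in the NTD embryos 1 and 2, and 219 and 252 in the controls. The controls lay just above the 4 lower exposed embryos.

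The 2 parts of the uptake receptor were less alike. Cubn, which encodes cubilin, the part that binds ligands such as vitamin B12 with intrinsic factor and apolipoprotein A-I, had 1701, 10.7 and 23.2 in the no-NTD embryos 1 to 3, 55.0 and 15.02 in the NTD embryos 1 and 2, and 62.0 and 14.6 in the controls at 1452270_s_at. Its second probe set, 1426990_at, had 1115 in exposed embryo 1 without NTD and 31.4 to 64.4 in the others. Amn, which encodes amnionless, the membrane anchor of cubilin, had 500, 127 and 155 without NTD, 113 and 84.0 with NTD, and 83.6 and 144 in the controls. By the brightest probe set of each gene, its ratio of 3.22 to the next embryo was the smallest of the 9 genes highest in exposed embryo 1 without NTD. Afp had smaller ratios, 2.82 and 1.93, at 1416645_a_at and 1436879_x_at. For Amn the other 6 embryos overlapped between groups.

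Alb, the plasma protein made by hepatocytes, did not follow. Its signals were 226, 161 and 243 in the no-NTD embryos 1 to 3, 128 and 222 in the NTD embryos 1 and 2, and 314 and 426 in the controls. Both controls lay above all 5 exposed embryos, which was true of 1 of the 10 tested probe sets of these genes and of 13.4% of all tested probe sets. At the 4-fold limit, the members just inside and just outside it were Afp 1416646_at with a ratio of 5.90 and Amn with 3.22.

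Embryo order below exposed embryo 1 without NTD was also counted. Exposed embryo 2 without NTD had the lowest signal in 11 of the 21 probe sets. A control was the second highest in 12 of the 18 probe sets that were highest in exposed embryo 1 without NTD. Several of these probe sets measure the same gene, among them those of Afp and Ttr, and many are dim outside exposed embryo 1 without NTD. The same shares over all probe sets were not computed, so these counts are descriptions.

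The other arrays held no embryo of this kind. Over all probe sets that reached the 40th percentile of an array in at least 1 embryo, 42 were over 4 times the next embryo in exposed embryo 1 without NTD and 114 were over 2 times. The other 6 embryos had 0 to 2 and 1 to 7 such probe sets. Of the 42, 15 belonged to the 10 genes, 9 to other genes of a list of 48 markers of yolk sac and visceral endoderm, and 18 to neither.

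**Figure D2:**
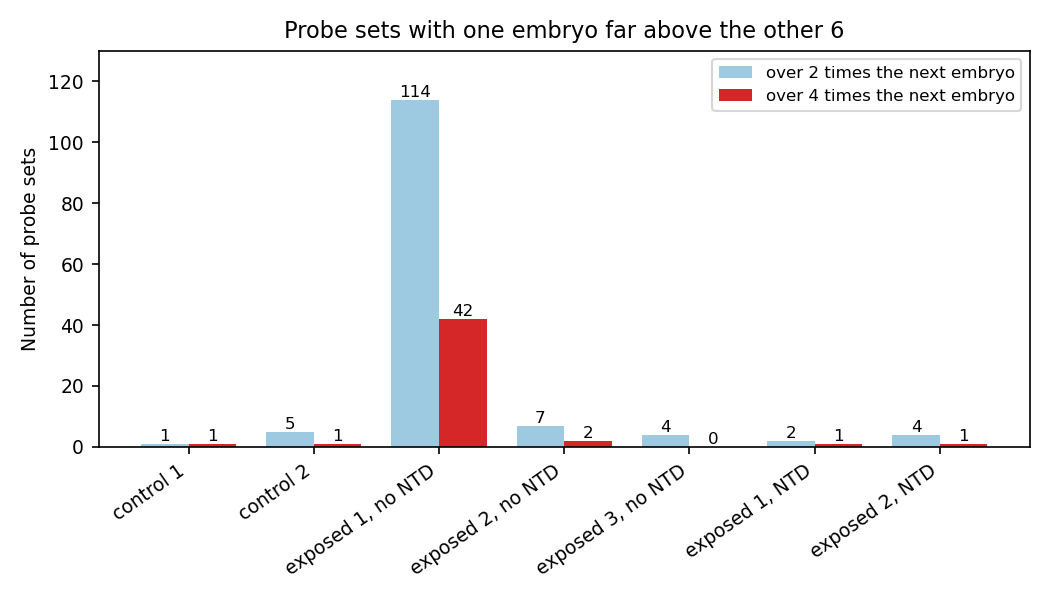
Number of probe sets whose signal in the named embryo is over 2 or over 4 times that of the next embryo, for each of the 7 embryos. Exposed embryo 1 without NTD has 114 and 42, and no other embryo has more than 7 and 2.

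Other genes with the pattern were ranked by the ratio of exposed embryo 1 without NTD to the highest of the other 6, over the 7 embryos. The first was S100g, an intracellular calcium-binding protein of absorptive epithelia, with a signal of 463 against 2.02 to 3.62, a ratio of 128. The signals of the other 6 embryos were dim for most of these genes, so the size and order of the ratios are uncertain. Apom, an apolipoprotein, had a ratio of 27.6 at one probe set and of 6.19 at its brighter one, with 763 against 51.2 to 123. High ratios were also seen for Igfbp1, a secreted binding protein of insulin-like growth factors, with 24.7, Prap1 with 23.8, the scaffold protein gene Pdzk1 with 13.5 and Apoc2, the activator of lipoprotein lipase, with 12.6. The next were Fxyd2, Cldn2, Aqp3, Fgg, Spink1, Rhox5, Chac1, Spp2, Slc27a2, Creb3l3, Fga, Fgb, Phlda2 and Trap1a, with ratios from 10.6 down to 4.80. All 3 fibrinogen chains, Fga, Fgb and Fgg, were among these 20 genes.

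Marker lists of neighbouring tissues were set beside the 10 genes, with 1 probe set a gene, the brightest. Of 40 markers of yolk sac and visceral endoderm on the array that are not among the 10 genes, 34 (85%) had their highest signal in exposed embryo 1 without NTD. Of these 40, 14 were over 2 times the next embryo and 10 over 4 times. Over all probe sets at the filter, 23.8% were highest in that embryo. The markers were not filtered, so the 2 shares are of unlike sets and nothing is read from their contrast. The summed signal of the 40 markers was 17533 in exposed embryo 1 without NTD and 7714 to 8072 in the other 6. The list held the uptake receptor Lrp2, at 227 against 84.4 to 124, the adaptor Dab2, at 1479 against 764 to 1023, and Apoe, at 1689 against 442 to 768. Vil1, which encodes the microvillus protein villin, had 98.3 against 2.73 to 10.6, all dim, and Cldn6, an epithelial claudin, had 903 against 495 to 668. Gata4, an endodermal transcription factor, had 270 against 136 to 242. Other markers lay within the range of the other embryos, since Habp2, a protease of plasma, had 184 against 93.0 to 242, the transcription factor Hnf4a had 105 against 86.3 to 143, and Sox17 had 211 against 155 to 239.

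Markers on the liver bud list were not raised in the same way. Of 25 on the array, 6 (24%) had their highest signal in exposed embryo 1 without NTD and 0 were over 2 times the next embryo, and the sum was 10090 against 7737 to 9552. Dlk1 alone gave 5815 of the 10090, so the sum mostly follows that gene. The largest ratio was that of Serpinf2, which encodes the plasmin inhibitor alpha-2-antiplasmin, with 596 against 173 to 300. Tbx3 and Hhex, transcription factors of the liver bud, had 400 against 192 to 245 and 312 against 160 to 213. Fabp1, a fatty acid binding protein of hepatocytes, was dim at 82.2 against 15.04 to 62.7. The growth regulator genes Dlk1 and Igf1 lay within the range of the other embryos, at 5815 against 4236 to 6576 and 632 against 512 to 858. Ahsg, which encodes the hepatocyte protein fetuin-A, was dim in all 7 embryos at 4.84 to 33.3. The liver bud list includes Alb, which is also among the genes followed here. Fga, Fgb, Fgg, Apoc2, Apoc3 and Apom were placed on the yolk sac and visceral endoderm list, although apolipoproteins are known from both tissues. The contrast between the lists therefore depends on how genes were assigned. A liver source of the high signals was not tested.

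Other tissues that a dissected embryo could carry gave mixed values. Of 12 markers of maternal decidua, 7 were highest in exposed embryo 1 without NTD and 2 were over 2 times the next embryo, with a summed signal of 3067 against 1684 to 2013. The decidual prolactin gene Prl8a2 had 391 against 46.9 to 117, Prap1 had 642 against 29.1 to 174 at its brightest probe set, and Dcn, the proteoglycan decorin, had 646 against 320 to 396. Prl6a1 was dim at 64.8 against 6.22 to 56.4, Wnt4 had 438 against 338 to 421, and Cryab had 58.9 against 94.8 to 172. Of 23 trophoblast and placenta markers, 10 were highest in this embryo, and the sum was 1466 against 926 to 1359. Hand1, a transcription factor of trophoblast and heart, had 543 against 246 to 480. Rhox6, Cts7, Prl7a1 and Prl7a2 were dim in all 7 embryos, with 88.8, 72.7, 5.46 and 3.57 in exposed embryo 1 without NTD against at most 37.2, 53.1, 4.21 and 2.69. The trophoblast marker Tpbpa was also dim in all 7 embryos, with 35.3 in this embryo, and Plac1 was lowest there at 196 against 235 to 318. Of 14 parietal endoderm markers 5 were highest, with a sum of 18558 against 14154 to 17364. Sparc, a matrix protein that parietal endoderm secretes in bulk, had 3786 against 1780 to 2829, and the basement membrane genes Col4a1 and Lama1 had 3831 against 2700 to 3245 and 518 against 322 to 469. Snai1 had 442 against 250 to 436 and Fstl3 was dim at 76.1 against 9.42 to 41.0, while Lamc1 and Plat lay within the range of the others. Thbd and Pth1r were lowest in this embryo, at 89.8 against 98.9 to 182 and 263 against 338 to 535. The part of any of these tissues in the high signals of the 10 genes was not tested.

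Epithelial, blood and transport lists were also summed. The ratio of exposed embryo 1 without NTD to the next embryo was 1.12 to 1.30 for these 4 lists, against 1.52 for decidua and 1.06 to 1.08 for liver bud, parietal endoderm and trophoblast. Of 16 gut and epithelium genes 8 were highest in exposed embryo 1 without NTD, with a sum of 7110 against 4470 to 5852 and Krt18, a simple epithelial keratin, at 1842 against 518 to 972. Another such keratin, Krt19, had 319 against 101 to 205, Cldn7 had 489 against 192 to 330 and Epcam, an epithelial adhesion molecule, had 595 against 254 to 409. Of 13 primitive red cell genes 3 were highest, the embryonic globin genes Hba-x, Hbb-bh1 and Hbb-y. The sum was 86901 against 68874 to 71192 in the other exposed embryos and 54599 to 56944 in the controls. Ermap, Klf1 and Rhag lay within the range of the other embryos. Of 21 genes of lipoprotein and retinol handling 12 were highest and 5 over 2 times the next embryo, among them Vldlr, a lipoprotein receptor, at 866 against 123 to 398, and Apoc1, an apolipoprotein, at 565 against 132 to 237. Apoc1, Apoc2, Apoc3, Apoe, Apom, Mttp and Lrp2 are also on the yolk sac and visceral endoderm list. Of the 5, all but Vldlr are counted there already. Lrp2, Dab2 and Lgmn are shared by that list and the endocytic list, so these lists are not separate. Crabp1, an intracellular binding protein of retinoic acid, had 5403 against 3199 to 4450, and Scarb1, the receptor of high-density lipoprotein, had 780 against 454 to 804. The intracellular retinoid genes Crabp2, at 4258 against 3467 to 4754, and Aldh1a2, at 537 against 462 to 652, lay within the range of the other embryos. Of 19 partners of endocytic receptors 13 were highest and 0 over 2 times, with a sum of 33499 against 27402 to 29916. Those of lysosomal proteases were among them, Lgmn at 791 against 269 to 453, Ctsb at 3119 against 1794 to 2313 and Ctsl at 2673 against 1507 to 2249. Ap2a1, of the clathrin adaptor, had 616 against 361 to 694, and Rab5a, of early endosomes, was lowest in this embryo at 891 against 1082 to 1417.

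**Figure D3:**
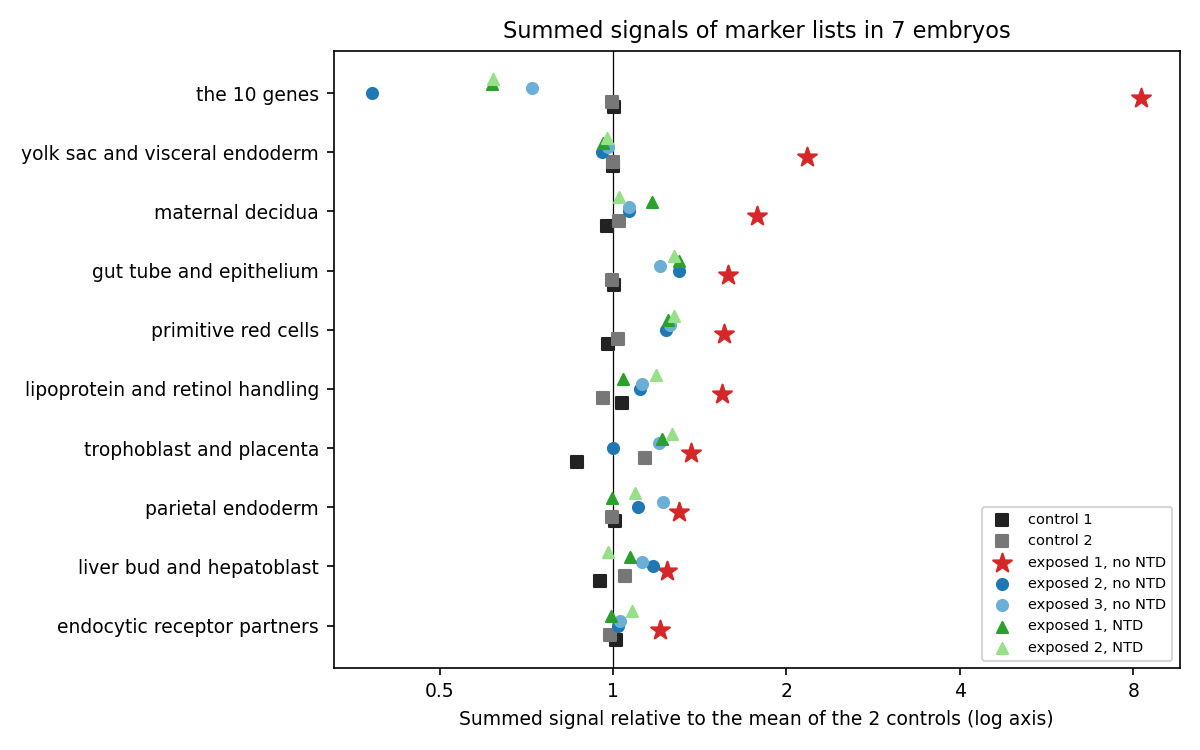
Summed MAS5 signal of each marker list in each embryo, relative to the mean of the 2 control embryos, on a log axis. The 10 genes are at 8.26 in exposed embryo 1 without NTD and at 0.382 to 0.725 in the other exposed embryos. Afp alone gave 9606 of the sum of 28010 in exposed embryo 1 without NTD. In control embryo 1 it gave 1629 of 3406, so the sums of the 10 genes follow Afp in large part. The yolk sac and visceral endoderm list is at 2.17 in exposed embryo 1 without NTD.

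Some of the 10 genes lie beside relatives that make plasma proteins, and these neighbours were read in the same embryos. Afp lies between Alb and Afm on chromosome 5. Afm, which encodes afamin of the albumin family, had 132 in exposed embryo 1 without NTD against 68.8 to 163 at 1427440_a_at, and 93.9 against 97.3 to 139 at 1427561_a_at, so that among these 3 neighbours Afp alone was high there. Apoa1, Apoc3, Apoa4 and Apoa5 follow each other on chromosome 9. Apoc3 and Apoa5 were highest in this embryo at 150 and 185, by ratios of 1.48 and 1.71 to the next embryo, where Apoa1 and Apoa4 at their brightest probe sets had 22.8 and 26.3. B4galt6, beside Ttr, had ratios from 0.838 to 1.15 over its 4 probe sets.

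The promoter windows of Afp and Alb are printed because the genes are adjacent and differed in exposed embryo 1 without NTD, and that of Apoa1 because 3 of its 4 probe sets had signals of 1932 to 2379 in that embryo and dim ones in the others. The RefSeq table, build GRCm38.p6, held 11 windows for 9 of the genes, each 250 bases before and 50 after an annotated start. The 250 bases before the start are shown on the sense strand, at chr5:90490464-90490713 for Afp, chr5:90460620-90460869 for Alb and chr9:46228380-46228629 for Apoa1, all on the plus strand. Capitals mark the letters TATAAA of the TATA box, GTTAAT of the HNF1 half-site and TGTTTGC, or its reverse complement, of the FOXA site, HNF1 and FOXA being transcription factors of endoderm.
Afp: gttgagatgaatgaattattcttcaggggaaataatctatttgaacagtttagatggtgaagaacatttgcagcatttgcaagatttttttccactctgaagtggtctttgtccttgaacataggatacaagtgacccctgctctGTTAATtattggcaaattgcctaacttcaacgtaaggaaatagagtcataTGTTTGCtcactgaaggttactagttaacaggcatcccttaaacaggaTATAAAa
Alb: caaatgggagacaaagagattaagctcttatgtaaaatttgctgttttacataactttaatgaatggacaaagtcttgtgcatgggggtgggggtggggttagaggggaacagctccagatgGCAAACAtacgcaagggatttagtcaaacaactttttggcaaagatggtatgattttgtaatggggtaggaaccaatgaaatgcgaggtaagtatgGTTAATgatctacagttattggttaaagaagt
Apoa1: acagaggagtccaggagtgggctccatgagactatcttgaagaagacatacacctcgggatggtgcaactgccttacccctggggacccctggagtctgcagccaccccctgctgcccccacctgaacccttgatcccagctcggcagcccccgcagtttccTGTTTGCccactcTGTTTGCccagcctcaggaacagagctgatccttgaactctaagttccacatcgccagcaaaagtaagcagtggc

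In the printed windows no match overlapped another. Afp held all 3 motifs, Alb the HNF1 half-site and the FOXA letters on the opposite strand, and Apoa1 the FOXA letters at 2 places. On either strand of the 300-base windows, TGTTTGC was present in 4 of the 11 windows, those of Afp, Alb, Apoa1 and Apob, and in 5.07% of all 32851 promoters. GTTAAT was present in 2 of the 11, those of Afp and Alb, and in 7.10% of all, TATAAA in 4 of the 11 and 13.6%, and TGTTTAC, another form of the FOXA site, in 2 of the 11 and 3.65%. The letters CAAAGTCCA of an HNF4 site, AGATAA of a GATA site and TTGCGCAA of a C/EBP site were in 0 of the 11 windows and in 0.475%, 11.2% and 0.183% of all. The windows of Amn, Apoa4 and Cubn held none of these letters. All of these are matches of letters in these windows only.

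Diabetes-exposed and control embryos were then compared over all probe sets with limma, on log2 signals. A probe set was tested where it reached the 40th percentile of the array in 2 or more embryos, and counted as called when its p, adjusted after Benjamini and Hochberg over all tested probe sets, was under 0.05. This left 10 probe sets of 6 of the genes (Afp, Alb, Amn, Apoa2, Rbp4 and Ttr), while Apoa1, Apoa4, Apob, Cubn and 2 Afp probe sets reached it in at most 1 embryo. Of all 14554 tested probe sets 25 (0.172%) were called, and 0 of the 10 were called, 1 of them (Alb) at an unadjusted p under 0.05. Exposed embryo 1 without NTD is part of this contrast, so nothing is read from that count. The log2 difference, exposed minus control, was positive for Amn, Apoa2 and Rbp4 and negative for the other 7, and its standard error was 0.26 for Alb and 0.55 to 1.40 for the rest.

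Without exposed embryo 1 without NTD, 4 exposed were compared with 2 control embryos. The signals of these 6 embryos were also known when the genes were chosen, so the values below describe these embryos and are no independent evidence. Ttr at 1454608_x_at was lower in the exposed embryos, with a log2 difference of -1.44 (SE 0.16, limma adjusted p = 0.0245, n = 4 and 2). It was 1 of 40 probe sets called among all 14554 tested (0.275%). The exact two-sided permutation test of the same signals gave p = 0.067, the smallest that 4 against 2 embryos can reach. The other 2 Ttr probe sets had log2 differences of -2.46 (SE 0.79) and -1.71 (SE 0.35) and did not pass the adjusted threshold. Their exposed signals were dim in part, with 18.2 and 55.2 among those at 1451580_a_at and 49.1 to 109 for all 4 at 1455913_x_at, so the size of these differences is uncertain.

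The remaining genes were not called in this comparison. The 3 Afp probe sets had log2 differences of -0.84 to -1.09, Alb of -1.001 (SE 0.27, limma adjusted p = 0.127), Apoa2 of -0.44 (SE 0.21) and Rbp4 of -0.35 (SE 0.15), and Amn had 0.09 (SE 0.34). Of the 10 probe sets 9 had a negative difference, against 50.3% of all tested probe sets, with a median of -0.9996 against -0.0023, and 7 had an unadjusted p under 0.05, against 16.7% of all. Both controls lay above all 4 exposed embryos for 9 of the 10 probe sets, Amn being the exception, where 15.6% of all tested probe sets showed the same. Ttr 1455913_x_at passed the filter only through exposed embryo 1 without NTD and both controls, so its direction was fixed by the filter, and 8 of the other 9 probe sets had both the negative difference and the separated groups. These probe sets share embryos, and several share a gene. With or without exposed embryo 1 without NTD, the groups are also 2 litters.

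**Figure D4:**
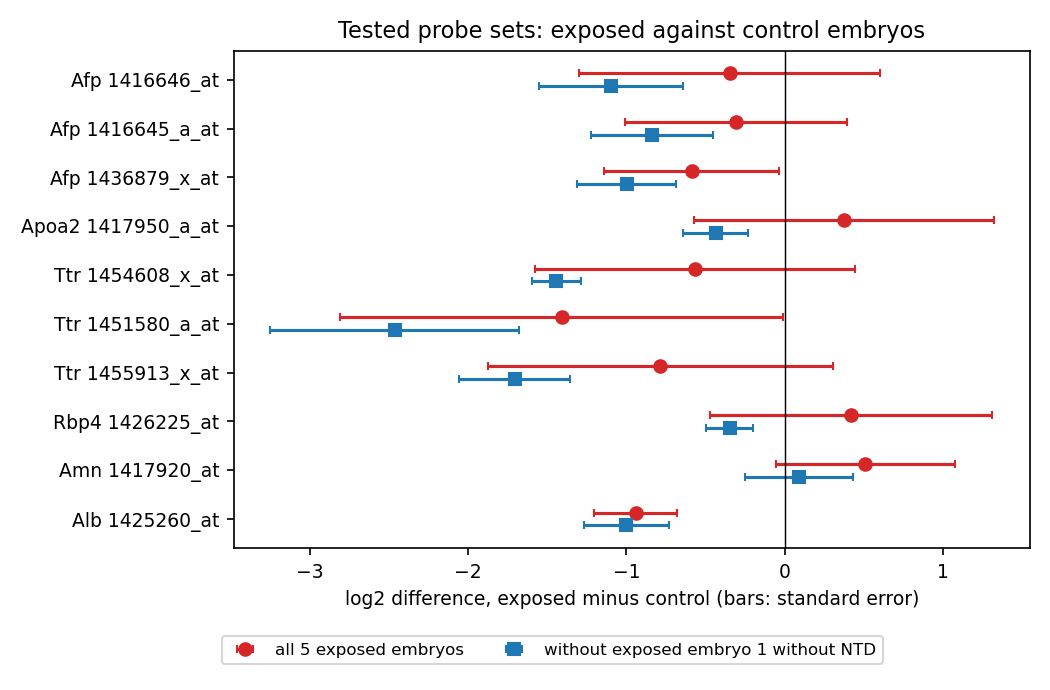
log2 difference of exposed minus control embryos, with its limma standard error, for the 10 tested probe sets with all 5 exposed embryos and without exposed embryo 1 without NTD. The differences of Apoa2 and Rbp4 go from above to below 0, that of Alb moves from -0.94 to -1.001, and the errors of the 3 Ttr and 3 Afp probe sets shrink.

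Among the marker lists, the tight-junction gene Cldn3 of the gut and epithelium list rose in the exposed embryos, with a log2 difference of 1.18 (SE 0.18, limma adjusted p = 0.0329), and was the only gene called of the 9 lists with all 5 exposed embryos. The limma adjusted p of Cldn3 passed the threshold no longer without no-NTD embryo 3 (0.0700), NTD embryo 2 (0.0688), or control embryo 1 or 2 (0.257 and 0.265), with log2 differences of 1.11 to 1.28 over all embryos left out in turn. Nor did it pass with no filter (0.0662), no trend (0.0583), the unmoderated test of the study's methods (0.0873), the replicate block (0.142) or a fit of 3 separate groups (0.0524). Without exposed embryo 1 without NTD, 2 of 11 tested primitive red cell genes also rose, Hbb-bh1 by 0.40 (SE 0.06, limma adjusted p = 0.0403) and the anion exchanger gene Slc4a1 by 0.96 (SE 0.15, limma adjusted p = 0.0481). With all 5 exposed embryos the limma adjusted p of Hbb-bh1 and Slc4a1 was 0.102 and 0.167. All 11 red cell genes had a positive difference in both comparisons, with a median of 0.48 with exposed embryo 1 without NTD and 0.56 without it. Of all tested probe sets, 49.9% and 50.3% were negative. Without that embryo, 0 of 22 tested yolk sac and visceral endoderm markers and 0 of 11 tested liver bud markers were called, with medians of -0.04 and -0.16. The summed yolk sac and visceral endoderm signal was 7714 to 7916 in the 4 exposed embryos and 8051 to 8072 in the controls. A link between this sum and the lower signals of Ttr was not tested.

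The 2 embryos with NTD were also set against the 3 exposed embryos without, in a limma fit with the 3 groups as separate means. None of the 10 probe sets was called by limma, 0 at an unadjusted p under 0.05, and 0 of all 14554 (0%) were called, 440 at an unadjusted p under 0.05. All 10 differences, NTD minus no NTD, were negative with a median of -1.13, but without exposed embryo 1 without NTD 8 of the 10 were positive with a median of 0.14. The difference of Afp at 1416646_at went from -0.67 (SE 1.07) to 0.70 (SE 0.51), and that of Amn from -1.14 (SE 0.53) to -0.53 (SE 0.38). Leaving out NTD embryo 1 also turned 2 of the 10 positive, Afp 1436879_x_at at 0.19 and Alb at 0.10, and leaving out any other embryo turned 0.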

How the data were processed

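RNA of 7 single whole embryos was hybridised by the authors to Affymetrix 430A 2.0 arrays. The deposited values are linear intensities, signals that the authors computed with MAS5 and that had a mean of 500.2 on every array after 2% of the probe sets was removed at each end. The study's methods name Affymetrix GCOS software for quality control and default parameters for the expression levels, and give neither a MAS5 version nor a target for the scaling. No detection call entered a test. Array annotation gave 20393 of 22690 probe sets 1 symbol, 691 several and 1606 none, and 64 control probe sets were left out of tests. The number of arrays limits the precision.

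Signals below 1 were set to 1 and log2 was taken. A probe set was tested where its signal reached the 40th percentile of the array in 2 or more of 7 arrays (14554) with limma 3.58.1 in R 4.3.3, with an intensity trend and Benjamini-Hochberg adjustment. limma was tested on simulated data. Single values were compared by exact two-sided permutation tests. The alternatives were a floor of 16, an offset of 50, quantile normalization, centring on the median, looser filters, no trend, array quality weights, Welch's test of the study's methods, a replicate block, a fit of 3 groups and each embryo left out.

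The 10 genes, the marker lists and the tests were chosen with earlier results of these data known. Genes named were every probe set of the 10 genes, the 20 other genes of largest ratio of exposed embryo 1 without NTD to the next embryo, up to 4 genes of largest ratio and 3 of smallest p from each list, and chromosomal neighbours. Hnf4a, Sox17, Ahsg, Cryab, Tpbpa, Thbd, Pth1r, Crabp2, Aldh1a2 and Slc4a1 fall outside this rule and were chosen after their values were seen. Promoters came from RefSeq, build GRCm38.p6, and Ttr had none in the table. Protein features were not computed. Other tools were SciPy 1.17.1, statmod 1.5.0, Matplotlib 3.10.9, pandas 2.3.3 and Python 3.11.15.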

Additional observations from a re-analysis of the deposited data

Results flagged for a closer look

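Among the 5 exposed embryos, 18 of the 21 probe sets of the 10 genes had 1 embryo whose distance to the nearest of the others, as a share of the whole range, exceeded Dixon's critical value of 0.71 for 5 samples. That embryo was exposed embryo 1 without NTD in all 18. Chance alone passes this limit in about 1 in 20 groups, and these genes were chosen for the high signals of that embryo, so the count describes the choice and is not a test of it. The shares were 0.91, 0.839 and 0.722 for Afp, 0.976, 0.998, 0.998 and 0.994 for Apoa1, 0.975 for Apoa2, 0.981 and 0.992 for Apoa4, 0.979 for Apob, 0.991, 0.945 and 0.968 for Ttr, 0.98 for Rbp4, 0.828 for Amn, 0.974 and 0.97 for Cubn. Summed signals of the lists passed the limit, again through exposed embryo 1 without NTD, with 0.979 for yolk sac and visceral endoderm, 0.810 for maternal decidua, 0.743 for gut tube and epithelium, 0.871 for primitive red cells, 0.714 for lipoprotein and retinol handling, 0.956 for the 10 genes together. In all, 24 of the 31 groups examined passed.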

How the results depend on the processing

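With all 7 embryos, 109 of 110 log2 differences of the 10 tested probe sets kept their sign under the other settings. The exception was Apoa2, at -0.056 with array quality weights. The floor, the looser filters, no trend and Welch's test left these log2 differences unchanged, so they could not turn a sign. Only the offset, quantile normalization, centring on the median, array quality weights, the replicate block and the fit of 3 groups tried the signs. Of all tested probe sets, 25 were called, and 50 with an offset of 50, 8 with no filter, 10 with no trend, 491 with array quality weights, 0 by Welch's test (2651 at an unadjusted p under 0.05) and 0 with the replicate block (2013 unadjusted). The numbers of the embryos do not pair them, with correlations of -0.248 to 0.026 between embryos of the same number, and the block left 0 of the 10 probe sets called in both comparisons. Among the 10 probe sets, 1 was called with array quality weights, Alb, lower in exposed embryos. Leaving out 1 embryo at a time gave 0 to 58 calls over all probe sets: 40 when no-NTD embryo 1 (exposed embryo 1 without NTD) was left out, 6 for no-NTD embryo 3, 58 and 10 for the NTD embryos 1 and 2, and 1 and 0 for the control embryos 1 and 2. It gave 0 to 1 calls for the 10 probe sets, the 1 being Ttr without exposed embryo 1 without NTD. Between embryos with and without NTD, 0 of the 10 were called under each setting run. The cause of these changes was not tested.

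The log2 differences ranged, over the embryos left out, from -0.44 to 0.65 for Apoa2, -0.35 to 0.67 for Rbp4, -0.84 to 0.091 for Afp 1416645_a_at and -1.09 to 0.17 for Afp 1416646_at. The first 2 turned negative without exposed embryo 1 without NTD, the Afp probe sets turned positive without exposed embryo 2 without NTD, and 1416645_a_at also without control embryo 1, at 0.02. The differences of Ttr, Alb, Amn and the other Afp probe set kept their sign.

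Probe sets over 4 times the next embryo in exposed embryo 1 without NTD numbered 42, and 29 to 42 with another scaling, floor or offset, but 79 with no filter. The highest number for another embryo was 2, and 0 with an offset of 50 and 12 with no filter. Probe sets of the 10 genes highest in that embryo stayed at 18 under each setting run. The floor, the offset and the looser filter could not change this number, so only quantile normalization and centring on the median tried it. Calls of the list genes without exposed embryo 1 without NTD, and counts of probe sets with no overlap between groups (1 with it and 9 without it among the 10), were computed after seeing the data. Dim signals limit the comparisons of Apoa1, Apoa4, Apob, Cubn, Amn and 2 Ttr probe sets between the other 6 embryos.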
